A study of Homo sapiens with 18 samples.

Results

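Open chromatin away from gene starts is often read as a sign of an enhancer, and the regions described here are accessible sites for which no enhancer was called in a reporter assay of the whole genome. They are the 13888 sites, out of 51909 in the ATAC-seq table, that shared at least 1 base with a peak of vehicle-treated cells and with a peak of TSA-treated cells, had their centre more than 1 kb from every annotated transcription start site, and shared no base with any of the 94527 STARR-seq enhancers. The data came from LNCaP, a human prostate adenocarcinoma line of luminal character. For ATAC-seq there were 3 cultures given trichostatin A (TSA), an inhibitor of histone deacetylases, at 100 ng/mL for 24 h, and 3 given the DMSO vehicle for as long. mRNA-seq was made from 3 TSA, 3 DMSO and 3 untreated cultures, and STARR-seq from 1 input plasmid library and 2 output replicates of electroporated cells. By the study's methods the cells grew in charcoal-stripped serum, so treated and control cultures alike were kept in serum stripped of steroids. Every value used here is 1 number for a pooled condition or 1 average over the libraries of the authors' fit, and which mRNA-seq groups entered the average of a gene is not given in the sources used here. No difference below therefore has a replicate check, sites are not replicates, no p-value is given, and the sequencing depth of the libraries is unknown.

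In ATAC-seq the Tn5 transposase cuts DNA that nucleosomes do not cover, so its reads collect at promoters, enhancers, insulators and other places held open by bound proteins. STARR-seq places genomic fragments in the transcribed part of a plasmid, where an active fragment raises its own transcription, so it reads the activity of a sequence outside its native chromatin. Insulator sites bound by CTCF, sites held open by pioneer factors and silencers can be open without being scored as enhancers in such an assay. The STARR-seq lists hold called regions only, so a site outside them may be inactive or may have been thinly covered by the plasmid library, and these cannot be told apart here. As a check of the cell line, 8 of 8 luminal prostate markers averaged above 1 CPM in the mRNA-seq table, among them KLK3 at 8.04 and HOXB13 at 8.81 log2 CPM. Of the markers of other cell types, KRT14, KRT15 and TP63 (basal), CHGA (neuroendocrine) and PTPRC, CD3E and LYZ (leukocyte) averaged under 1 CPM, while KRT5, SYP, ENO2 and all 4 stromal markers averaged above it.

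To show what such sites look like, 100 bases are printed from 6 of them (hg19, plus strand, read from the GRCh37 reference). They carry the motif of CTCF, of FOXA (TGTTTAC), of AP-1 (TGANTCA) or of GRHL (AACCGGTT), in capitals, within 200 bases around the centre. The first 4 are the sites with the highest vehicle score for each motif among single-copy sites with 1 peak in each condition. The last pair are the site with the lowest ratio of TSA to vehicle score among those with a FOXA motif and the site with the highest ratio among those with a CTCF motif.
CTCF, TMEM163 intron, chr2:135249529-135249628: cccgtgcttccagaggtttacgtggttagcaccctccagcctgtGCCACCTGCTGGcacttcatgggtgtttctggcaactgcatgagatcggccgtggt
FOXA, intergenic, nearest gene ASXL3, chr18:31382973-31383072: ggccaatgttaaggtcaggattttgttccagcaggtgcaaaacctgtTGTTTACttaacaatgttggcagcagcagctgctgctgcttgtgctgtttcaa
AP-1, KCNAB2 intron, chr1:6053801-6053900: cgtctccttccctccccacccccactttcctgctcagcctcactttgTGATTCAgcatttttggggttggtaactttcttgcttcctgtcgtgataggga
GRHL, intergenic, nearest gene ACTR3B, chr7:152942190-152942289: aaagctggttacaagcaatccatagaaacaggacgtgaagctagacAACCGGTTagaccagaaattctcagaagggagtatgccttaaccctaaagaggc
FOXA, lowest ratio, chromosome Y, chrY:14419636-14419735: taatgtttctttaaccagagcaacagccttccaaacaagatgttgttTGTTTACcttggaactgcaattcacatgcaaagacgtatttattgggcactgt
CTCF, highest ratio, nearest gene TMTC2, chr12:84217619-84217718: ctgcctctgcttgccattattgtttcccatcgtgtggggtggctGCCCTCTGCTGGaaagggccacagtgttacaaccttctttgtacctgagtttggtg
The score of these sites was the height of the Fseq peak, a smoothed density of transposase cuts in the pooled reads of a condition. The site in the TMEM163 intron had a score of 0.190 in vehicle and 0.171 in TSA, and the GRHL site near ACTR3B had 0.115 and 0.116. The KCNAB2 site had 0.335 in vehicle and 0.505 in TSA, and the FOXA site near ASXL3 0.282 and 0.177. The chromosome Y site had 0.201 in vehicle and 0.0477 in TSA, and the CTCF site near TMTC2 0.0557 and 0.122. Among the CTCF sites chosen alike, the lowest ratio was at a site with HRH4 as its nearest gene, not printed here, with 0.102 and 0.0537. CTCF is the insulator protein that anchors chromatin loops, FOXA factors are forkhead pioneer proteins that open chromatin for other factors, AP-1 is the FOS and JUN dimer, and GRHL factors (grainyhead-like) maintain epithelial identity.

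Of the 15747 distal sites shared by both conditions, 88.2% held no enhancer (95% Wilson interval 87.7 to 88.7, counting error only). The share was 88.1% of the 11626 distal sites found in TSA peaks alone (87.5 to 88.7) and 95.5% of the 10581 found in vehicle peaks alone (95.1 to 95.9). At start sites, where 11541 shared sites lay, 69.4% held none. The intervals of shared and TSA-only sites overlap, and that of vehicle-only sites lies above both. The sites differ in size, with a median width of 1130 bases for shared, 719 for TSA-only and 681 for vehicle-only distal sites. The part of width in these shares was not tested.

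The share without an enhancer moved with base composition, with width and with the score in TSA, and hardly with the score in vehicle. When the shared distal sites were split into 5 groups of equal size by GC content, 97.9% of the group with the least GC (up to 39.4%) and 80.1% of the group with the most (above 54.1%) held no enhancer. By width the share went from 95.7% in sites of up to 759 bases to 78.8% in those above 1807 bases. By vehicle score it was 88.8% in the lowest and 87.4% in the highest group, whose intervals (87.6 to 89.8 and 86.2 to 88.5) overlap. By TSA score it went from 92.6% (91.6 to 93.4) in the lowest to 81.4% (80.0 to 82.7) in the highest group.

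**Figure D1:**
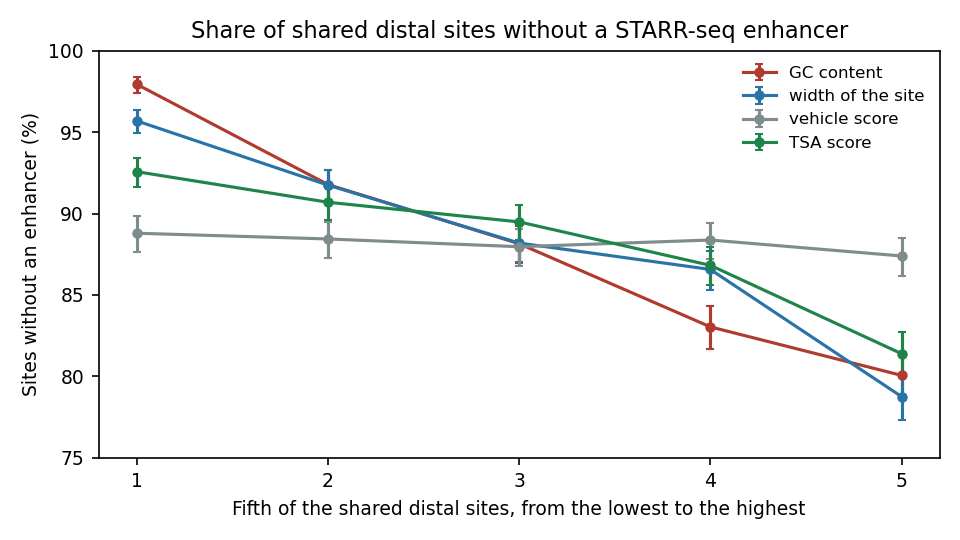
Share of the 15747 shared distal sites that hold no STARR-seq enhancer (y axis, percent, starting at 75) in 5 groups of equal size ordered by GC content, width, vehicle score or TSA score (x axis), with 95% Wilson intervals. The share falls from 97.9 to 80.1% with GC content and from 95.7 to 78.8% with width and from 92.6 to 81.4% with TSA score, and stays between 87.4 and 88.8% with vehicle score.

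The sites without an enhancer were smaller and poorer in GC than the 1859 shared distal sites that held one. Their median width was 1097 bases (quartiles 795 and 1556) against 1453. Median GC content was 44.8% against 50.7%, and 59.5% at start sites. It was nevertheless above that of the flanks, windows of equal length 5 kb away that share no base with any ATAC-seq site, where the median was 40.7%. CpG dinucleotides numbered 1.10 per 100 bases, against 1.69 in sites with an enhancer and 5.88 at start sites. The authors' average over the ATAC-seq libraries had a median of 3.82 log2 CPM per site, against 4.22 with an enhancer. Per kb of width the order turned, with 3.68 log2 CPM per kb against 3.59, so that the lower read number of the sites without an enhancer went with their smaller width.

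By the place of the centre, 7209 sites (51.9%) lay in introns, 6009 (43.3%) between genes, 420 (3.02%) in exons outside untranslated regions and 250 (1.80%) in untranslated regions. Sites with an enhancer divided much alike, with 51.1% in introns and 42.9% between genes. From its centre to the closest start site a site had a median of 19.0 kb, against 15.3 kb with an enhancer, and 1116 sites (8.04%) lay more than 100 kb from any. The distance to the nearest enhancer, which the choice of sites holds above 0, had a median of 9.87 kb with quartiles of 3.94 and 21.3 kb. For distal sites without an enhancer it was 10.8 kb in TSA-only and 11.9 kb in vehicle-only sites. Within 1 kb of the site an enhancer lay beside 966 (6.96%), and 947 (6.82%) were more than 50 kb from one. Of the nearest enhancers 12.9% were of the open class, meaning that they met a DNase I peak of LNCaP cells. This is close to the share among all enhancers, of which 11980 of 94527 were of the open class.

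The values at the limits of the choice are given as a description. The closest centres to a start site were at 1001 bases (chr11:55639819-55642204, vehicle score 0.136) and 1003 bases (chr2:121492927-121495967 in a GLI2 intron, 0.0863), and the 2 sites without an enhancer just outside lay at 999 bases (chr4:8581728-8584507, 0.115) and 997 bases (chr4:158739947-158741494, 0.0446). The sites nearest to an enhancer were 1 base (chr3:117591599-117592809, vehicle score 0.0895) and 2 bases away (chr16:48446832-48448164, 0.10). Just outside, chr4:104866644-104867712 shared 2 bases with an enhancer (0.0821) and chr13:40733734-40734722 shared 3 (0.130). Sites on either side of these limits had scores of the same order.

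Motif content set the open sites apart from the DNA beside them. A motif was counted when its letters occurred on either strand anywhere in a site, and the same was done in 25001 flank windows. The CTCF motif was in 1162 sites (8.37%, interval 7.92 to 8.84) and in 0.488% of the flanks, 17.1 times as often. NRF1, a promoter factor (GCGCATGCG), was in 0.504% of sites and 0.0760% of flanks, and GRHL was in 0.626% of sites, 6.26 times as often as in flanks. ETS (CCGGAAG), the motif of a family of winged-helix factors, stood at 7.14% against 3.70%, and CRE (TGACGTCA), bound by CREB and ATF proteins, at 0.965% against 0.428%. FOXA was in 3611 sites (26.0%) against 16.1% of flanks, the E-box (CACGTG) in 17.8% against 12.5%, the NFI motif (TTGGCA) in 54.7% against 45.6%, and AP-1 in 4976 (35.8%) against 31.7%. The HOX motif (TTTATNG), which HOXB13 can bind, was in 51.2% of sites and 56.3% of flanks, and 1394 sites (10.0%) held none of the 10 motifs. Flanks were not matched for GC, and the gaps varied with the GC content of the site. Up to 40% GC AP-1 was in 37.7% of sites against 28.2% of their flanks, and FOXA in 31.1% against 16.3%. Above 60% GC both turned, with AP-1 at 36.0% against 45.8% and FOXA at 14.9% against 21.2%. CTCF (11.2% against 2.39%) and ETS (35.6% against 15.1%) stayed above their flanks there. Motifs may overlap, and a match is a run of letters and not evidence of binding.

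**Figure D2:**
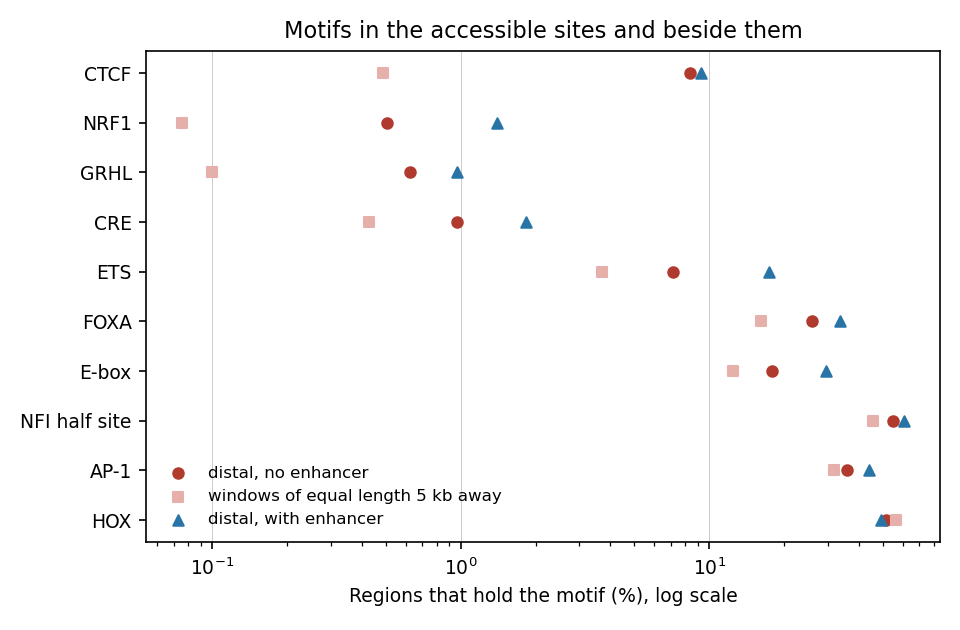
Share of regions that hold each motif (x axis, percent, log scale) for 10 motifs (y axis), in distal sites without an enhancer (circles), in windows of equal length 5 kb away (squares) and in distal sites with an enhancer (triangles). CTCF has the widest gap between sites and flanks, 8.37 against 0.488%; ETS stands at 7.14% without and 17.4% with an enhancer.

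Compared with distal sites that held an enhancer, the sites without one had fewer ETS motifs (7.14% against 17.4%), E-boxes (17.8% against 29.4%), FOXA motifs (26.0% against 33.4%) and AP-1 motifs (35.8% against 43.8%). CTCF was at 8.37% against 9.25% in whole sites, with overlapping intervals. In the central 200 bases, a window of equal length in every site, the differences were smaller or turned. There ETS stood at 1.14% of the sites without and 2.10% of the sites with an enhancer, the E-box at 3.13% and 3.82%, FOXA at 7.60% and 8.34%, AP-1 at 8.65% and 8.07%, and CTCF at 3.19% and 1.67%. Of the 474 shared distal sites with a central CTCF motif 93.5% held no enhancer (interval 90.9 to 95.4), beside 88.2% of all shared distal sites, but these sites were narrow, and 91.7% of all shared distal sites of 759 to 1000 bases held none. A central HOX or NFI motif went with shares of 91.9% and 90.9%. Of the 1316 with an ETS motif 75.4% held none (73.0 to 77.6). Those of them without an enhancer were wide and rich in GC, with medians of 2000.5 bases and 56.9%. Of all shared distal sites 78.8% of those above 1807 bases held none, and 80.1% of the fifth with the most GC. The ETS difference varied with GC content: at 50 to 55% GC the motif was in 7.40% of sites without and 9.86% of those with an enhancer, while above 60% it was in 35.6% and 57.0%.

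TSA left the score of most of these sites close to its vehicle value, with more of them lower than higher. Scores ran from 0.0390 to 11.9 in vehicle, with a median of 0.0627 (quartiles 0.0491 and 0.0867), and from 0.0377 to 11.8 in TSA, with a median of 0.0607. The ratio of TSA to vehicle score is given on the log2 scale less its median over all 27288 shared sites (0.10), and "higher" and "lower" mean past 1.5-fold. The median log2 ratio was -0.11 (quartiles -0.41 and 0.18), 1.08-fold lower than for all shared sites. It was 0.04 in distal sites with an enhancer and 0.09 at start sites. Of the sites without an enhancer 2266 (16.3%) were lower, beside a background of 9.69% of all shared sites, and 924 (6.65%) were higher, beside a background of 7.73%. With an enhancer 7.91% were lower and 14.4% higher, and at start sites 2.00% and 7.94%. Among the sites without an enhancer past 1.5-fold, 29.0% were higher; without division by the median this was 42.5%, with 1272 (9.16%) higher and 1721 (12.4%) lower. A site had to pass the lowest score of both peak lists (0.0390 in vehicle and 0.0377 in TSA) to be here, which cuts off the largest falls and rises. A site with a vehicle score near that limit could not be called lower, nor one with a TSA score near it higher. Median vehicle scores were 0.0637 in distal sites with an enhancer and 0.0809 at start sites. The part of this limit in the shares of the classes and groups compared here was not tested. While their median score was lower, 8650 sites (62.3%) had a wider peak in TSA than in vehicle, beside 59.8% of all shared sites and 69.8% of distal sites with an enhancer, with median peak widths of 983 and 874 bases.

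**Figure D3:**
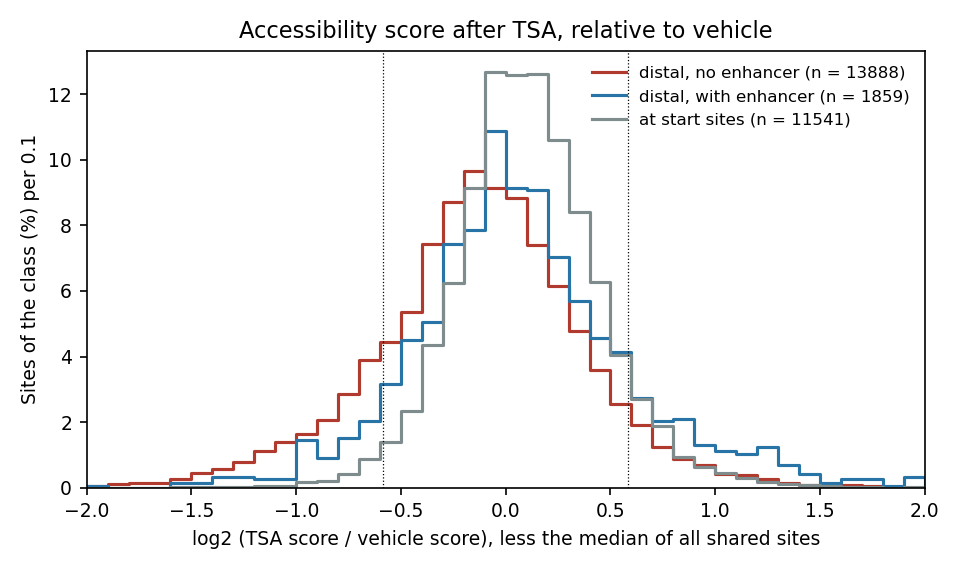
Distribution of the log2 ratio of TSA to vehicle Fseq score, less the median of all shared sites (x axis, drawn from -2 to 2), as the percent of sites of a class per 0.1 (y axis), for 13888 distal sites without an enhancer, 1859 with one and 11541 sites at start sites; dotted lines mark 1.5-fold. Of the 3 classes the sites without an enhancer have the highest share past 1.5-fold to the left, with 16.3% lower, and those with one the highest share to the right, with 14.4% higher.

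Scores were lower in TSA mainly in sites of low GC content. In the group of sites without an enhancer with the least GC (n = 2778) the median score was 0.0696 in vehicle and 0.0548 in TSA, the median log2 ratio was -0.35, and 33.1% were lower against 2.16% higher. The next 3 groups by GC had median log2 ratios of -0.18, -0.08 and 0.01, and in the group with the most GC (above 53.4%) the ratio was 0.01, with 4.61% lower and 8.57% higher. Low GC went with low ratios in the other classes too: up to 40% GC the median log2 ratio was -0.32 in sites without an enhancer, -0.22 in those with one and -0.21 at start sites, and at 50 to 55% it was 0.03, 0.17 and 0.08. In all 6 ranges of GC the sites without an enhancer had the lowest median of the 3 classes. The part of base composition of the libraries in these ratios was not tested.

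**Figure D4:**
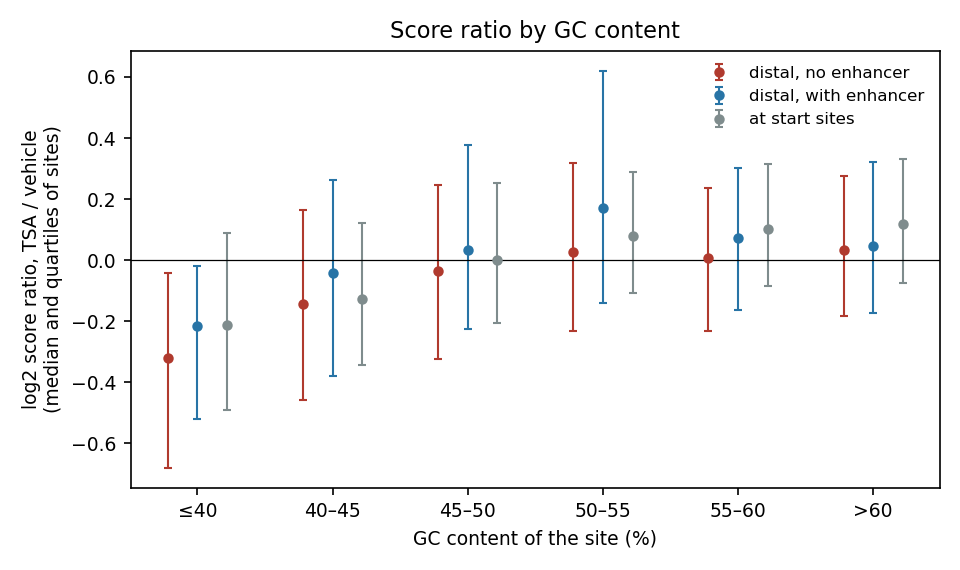
Log2 ratio of TSA to vehicle score less the median of all shared sites (y axis; points are medians and bars quartiles of the sites) in 6 ranges of GC content (x axis) for the 3 classes of shared sites. The median of distal sites without an enhancer runs from -0.32 at up to 40% GC to 0.03 above 60%, and the other classes also have their lowest medians at the lowest GC.

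Sites with different motifs differed in how far their score moved. Of the 1162 sites with a CTCF motif 49 (4.22%) were lower and 60 (5.16%) higher, with a median log2 ratio of 0.01 and median scores of 0.0600 in vehicle and 0.0644 in TSA. Of the 3611 sites with a FOXA motif 816 (22.6%) were lower and 293 (8.11%) higher, with a median log2 ratio of -0.17 and scores of 0.0679 and 0.0622. The HOX motif stood near FOXA, with 20.9% lower and a median of -0.16. AP-1 was at 17.1% lower and -0.09, the E-box at 10.2% and -0.04, and ETS at 6.75% and 0.01. The 134 sites with a CRE motif and the 70 with an NRF1 motif had medians of 0.10 and 0.15. Of the 10 motifs, NRF1 and CTCF sites were the least often lower, and FOXA and HOX sites the most often. For NRF1 this rests on 2 lower sites of 70, with a median GC content of 57.8%, too few to rank it. The vehicle scores of CTCF sites were closer to the lowest score of the peak lists than those of FOXA sites, and the part of this was not tested. The groups also differed in median GC content, at 42.8% for HOX, 44.4% for AP-1 and 56.9% for ETS. At 45 to 50% GC 13.8%, 11.3% and 13.5% of them were lower, beside 11.4% of all sites without an enhancer. Up to 40% GC the shares were 34.8%, 33.4% and 22.6% (53 ETS sites), beside 30.8%.

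Within ranges of GC content up to 55%, CTCF sites were also less often lower than FOXA sites. Among single-copy sites of up to 40% GC, 5.62% of the 178 with a CTCF motif, 39.3% of the 1016 with a FOXA motif and 29.6% of the 2083 with neither were lower. At 45 to 50% GC these shares were 3.08%, 16.7% and 10.5%. From 55 to 60% GC they lay closer, at 3.70%, 4.90% and 5.53%. Above 60% they were 0 of 106 sites with a CTCF motif, which allows a share of up to 2.83%, 5.59% of 143 with a FOXA motif and 2.91% of 687 with neither. Sites with a central CTCF motif were also narrow, with a median width of 790 bases against 1011 for a central FOXA motif.

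**Figure D5:**
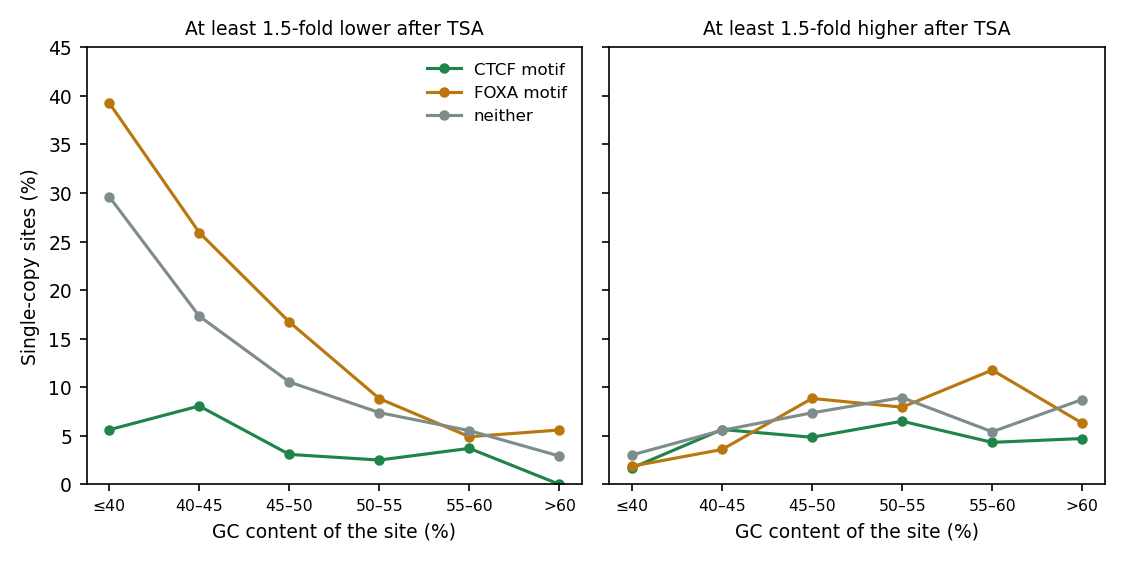
Percent of single-copy distal sites without an enhancer whose score was more than 1.5-fold lower (left) or higher (right) in TSA than in vehicle (y axes), by range of GC content (x axes), for sites with a CTCF motif, with a FOXA motif or with neither; a site with both motifs counts in both lines. At up to 40% GC 39.3% of FOXA sites and 5.62% of CTCF sites are lower, and the lines of higher sites all stay under 12%.

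Repeated sequence stood apart. To gauge it, 7 words of 24 bases spread over each site were counted in chromosomes 1 to 22, X and Y, and the median count was taken as the copy number; copies on unplaced sequence were not counted. By this measure 12839 sites (92.4%) were single-copy and 637 (4.59%) had 10 copies or more, against 11.4% of the distal sites with an enhancer. In the 637 sites 148 (23.2%) were higher and 61 (9.58%) lower, the reverse of the balance in single-copy sites, where 5.68% were higher and 16.8% lower. Most of the higher sites held a FOXA motif: of 290 such sites 37.2% were higher, with a median log2 ratio of 0.32 and median scores of 0.0600 in vehicle and 0.0831 in TSA, while of the 347 without it 11.5% were higher and 11.5% lower. The 290 sites also had more GC than the 347 (median 51.9% against 45.3%) and were wider (1057 against 674 bases). Their median vehicle score was higher too, at 0.0600 against 0.0535. The part of these differences was not tested, nor whether the sites are copies of the same repeat. The authors kept uniquely mapped reads only, and the part of mapping in these values was not tested.

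The highest vehicle scores were in DNA of several copies. The first was at chr16:46418702-46430696, with 11.9 in vehicle and 11.8 in TSA, followed by chr10:42596541-42600725 (3.91 and 3.99), chr9:66970762-66972447 (3.28 and 3.16), chrY:58826297-58828504 (3.08 and 2.81) and chr18:105888-112834 (2.25 and 2.86). Their copy numbers ran from 5 to 51, and none held a CTCF or FOXA motif. Only 15 of the 13888 sites had a vehicle score of 1 or more. Among sites counted as single-copy the highest was chr1:91852493-91853536 in an intron of HFM1, a meiotic DNA helicase gene (-0.41 log2 CPM). Its score was 1.91 in vehicle and 3.36 in TSA. The next was chrY:13842332-13843087, with 1.86 and 1.77, and then chrX:108297108-108298122 between genes, with 1.27 and 2.74. Copies on unplaced sequence were not counted, and whether these sites have such copies was not tested. Their high scores, and the changes in TSA, therefore cannot be read as openness of unique DNA. The part of mapping in them was not tested.

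The 5 highest ratios among sites with 1 peak in each list were mostly in sequence with copies elsewhere. At chr8:70602095-70602724, in an intron of the transporter gene SLCO5A1 and with 2 copies, the score was 0.0489 in vehicle and 0.355 in TSA. At chr3:96335804-96337500 it was 0.375 and 2.39, and 30.3% of the words of that site also occurred in the mitochondrial genome. The site chr7:45291313-45292114, at 0.104 and 0.591, held 8.47% of such words. In all, 3 of the 13888 sites held 5% or more of mitochondrial words, and all 3 were higher. The remaining 2 were chr7:145715842-145716817 (0.0663 and 0.338, 70 copies) and chr4:62237886-62239117 (0.0927 and 0.434, 99 copies). A FOXA motif was in 4 of these 5 sites. In single-copy sequence the highest ratio was at chr1:196329869-196331553 in an intron, with the potassium channel gene KCNT2 as its nearest gene, at 0.0509 and 0.210.

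The 5 lowest ratios were all in single-copy sequence. They were at chr18:27790752-27792291 between genes (0.246 in vehicle and 0.0410 in TSA), chr3:29534094-29535101 in an intron of RBMS3, which codes for an RNA-binding protein (0.201 and 0.0411), chr11:108845488-108846864 (0.211 and 0.0455), chr5:161127935-161129984 at the end of GABRA6, a GABA receptor subunit gene (0.184 and 0.0412), and chr7:145262888-145264610 (0.402 and 0.0912). Their centred log2 ratios ran from -2.68 to -2.24. In TSA 4 of the 5 stood close to the lowest score of the list, 0.0377. GC content was 34.0 to 36.1% in 4 of them and 47.1% in the site on chromosome 11, and none held a CTCF or FOXA motif.

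The genes nearest to these sites had a lower median expression than all genes, though most averaged at least 1 CPM when counted per site (57.9%, against 66.3% of all genes). Of the 21177 genes of the mRNA-seq table with a start site, the nearest to each site had a median average of 1.29 log2 CPM (quartiles -1.94 and 4.72). It was 2.69 beside sites with an enhancer and 4.81 at start sites. These medians count a gene once for each of its sites. With each gene counted once, the median was 2.94 over all 22336 genes of the table and 3.08 over the 21177. Counted once, the 5801 genes nearest to a site without an enhancer had a median of 2.18, and the 6350 sites within 50 kb of their gene one of 2.08. Most sites lay far from these genes, at a median of 59.7 kb.

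The genes with the most such sites nearest to them were CWH43 and NTM (34 each), GYG2P1 (33), SORCS1 (31), TTTY3 (27), PCDH7 (26), CNTNAP2 (24) and AUTS2, MYOM2 and XPNPEP1 (23 each). Many of these sites lay far from the gene, at median distances of 86.8 kb for CNTNAP2 and 861 kb for PCDH7. NTM codes for a neural adhesion molecule, SORCS1 for a sorting receptor, PCDH7 for a protocadherin, and CNTNAP2 for a neurexin-like protein of axons. NTM averaged -2.40, SORCS1 -1.41, PCDH7 1.25 and CNTNAP2 2.85 log2 CPM. The median log2 ratio of their sites was -0.17, -0.05, -0.26 and -0.25. Over the 10 genes the lower sites ran from 2 (of 34 at CWH43 and of 23 at XPNPEP1) to 8 (of 31 at SORCS1), beside 16.3% of all sites without an enhancer. AUTS2, at 5.31 log2 CPM, and XPNPEP1, an aminopeptidase gene at 6.81, were well expressed, with medians of 0.08 and -0.03. TTTY3 and GYG2P1 gather sites of chromosome Y over long distances. CWH43 was the main nearest gene of groups of 9, 8 and 6 sites on chromosome 4, joined over gaps of up to 10 kb. The median copy numbers of these groups were 16, 4.5 and 19.5, so the count at CWH43 includes repeated sequence.

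The lists of genes of prostate cells were small, and the share of their genes with such a site nearby lay on either side of that of all genes. Within 100 kb of a start site, 10825 of 21177 genes (51.1%) had at least 1, and 49.8% of those averaging 1 CPM or more. Of 19 androgen-responsive genes 8 had one (14 sites in all), and KLK2, KLK3, KLK4, TMPRSS2 and FKBP5 had none. Of these 14 sites 2 were lower and 0 higher, counts too small to set apart from the 16.3% and 6.65% of all sites without an enhancer. ACPP, which codes for prostatic acid phosphatase, had 2 sites with a median log2 ratio of -0.90, both with a FOXA motif, and NDRG1, a stress-responsive androgen target, had 4 with a median of 0.26. Of 9 luminal transcription factors 6 had one, 7 sites in all, while HOXB13, GRHL2 and KLF5 had none. FOXA1 had 1 site at -0.29 and GATA2 had 2 with a median of 0.19. The shares of these lists were 42.1% and 66.7%. Of 8 luminal markers 2 had one: ACPP, and FOLH1, the gene of prostate-specific membrane antigen, with 3 sites at a median of 0.41.

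The other lists gave similar counts, and their numbers of lower and higher sites, to be read beside 16.3% and 6.65% of all such sites, are small. Of 10 neuronal genes repressed by REST in other cell types 6 had a site (16 in all, 2 lower and 2 higher). GRIA2, a glutamate receptor gene, had 2 with a median log2 ratio of -1.16, both lower, and CHGA, which codes for chromogranin A, had 5 with a median of 0.23. Of 10 cell cycle inhibitors 7 had one (13 in all, counted per gene, 1 lower), and CDKN1A, the p21 gene, had none. CDKN2A and CDKN2B share the same 2 sites, at a median of -0.41. Of 10 glycolysis genes 4 had one (9 in all, 3 lower), and all 3 lower sites were at PGK1, whose 4 sites had a median of -1.17. Of 10 genes of CTCF, cohesin and its regulators 6 had one (10 in all, 2 lower), among them CTCF itself with 3 sites at a median of 0.03.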

How the data were processed

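The members and gene lists were chosen with earlier results of these data known. Per the study's methods, ATAC-seq reads were aligned to hg19 with Bowtie and Bowtie2, duplicates removed with Picard and cut positions shifted, and the authors called Fseq peaks on each pooled condition. The deposited peak lists give an Fseq score per peak. The deposited ATAC-seq and gene tables give the authors' average log2 CPM from edgeR. Their columns of fold change, likelihood ratio, p-value and q-value hold the authors' comparison of TSA with vehicle and were not used. The deposited STARR-seq lists give the MACS2 fold enrichment (a ratio to the input library) and its −log10 q, used only to describe the nearest enhancers and to select those with q under 1e-10.

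Sites, peaks and enhancers were joined by coordinates in Python 3.11.15 with pandas 2.3.3 and NumPy 2.4.6. Start sites and gene parts came from the GENCODE basic set mapped to GRCh37 (110162 start sites). Each site took the highest score of its peaks in a condition. No filter on low values or pseudocount was used. Joins, distances and nearest start sites were tested on simulated intervals. Named sites were the 5 with the highest vehicle score, the 5 highest and 5 lowest ratios among sites with 1 peak in each list, the 2 on either side of each limit, and the 10 genes nearest to most sites; single-copy sites and the splits by GC content and copy number were added after the values were seen. The libraries' depth is unknown, and intervals are Wilson intervals (95%) for counting error. Some genes and motifs of the lists are not reported here. Alternatives are given in the closing section.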

Additional observations from a re-analysis of the deposited data

How the results depend on the processing

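No paired analysis was possible because the files used hold no value per library, and for the same reason no replicate could be left out. With the limit at 2 kb or the centre inside both peaks, the number of sites and the share without an enhancer stayed within 1.5 times and within the interval. The share was 85.5% with no enhancer allowed within 500 bases and 87.5% with protein-coding start sites only. The median log2 ratio of TSA to vehicle was -0.019 when not divided by the median of all shared sites, -0.076 with both scores above the list medians and, as choices made after seeing the data, -0.13 in single-copy sites and -0.010 at 45 to 55% GC. The percent higher was 9.16 undivided, 1.60 past 2-fold and 5.66 in single-copy sites without mitochondrial words. The percent lower was 12.4 undivided, 5.21 past 2-fold and 12.7 with both scores above the list medians. The average per site was 3.68 log2 CPM less log2 of the width in kb. Nearest gene expression was 2.08 within 50 kb and 2.18 with each gene once. In the central 200 bases the CTCF share was 3.19% and GC content 47.0%, and the shares of the other 9 motifs were also lower. In single-copy sites 5 of these 9 moved beyond their interval. The distance to the nearest enhancer was 26.5 kb for those with q under 1e-10, and the intronic share 38.2% by protein-coding transcripts. Fewer bases, sites or enhancers entered several of these settings by construction; the cause of the other shifts was not tested.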

Other observations

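Distal sites without an enhancer were spread unevenly over the chromosomes. Per Mb of known sequence there were 7.61 on chromosome 11, 6.73 on chromosome 8 and 6.35 on chromosome 1, against 1.79 on chromosome 21, 2.45 on chromosome 2 and 2.47 on chromosome 6. Shared sites at start sites followed this order only in part. They numbered 5.30, 3.57 and 5.10 per Mb on chromosomes 11, 8 and 1, and 2.91, 2.59 and 2.85 on chromosomes 21, 2 and 6. On chromosome 19 there were 12.9 per Mb, where the sites without an enhancer numbered 4.23. LNCaP cells carry extra and rearranged chromosomes, and the part of copy number in these densities was not tested. The median log2 ratio of TSA to vehicle lay below that of all shared sites on each of the 24 chromosomes, from -0.17 on chromosome 18 to -0.04 on chromosome Y. Not divided by the median of all shared sites, it was above 0 on 6 of them.

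Most of these sites stood alone: joined where no more than 10 kb lay between them, they formed 12332 groups, and 11070 sites (79.7%) had no neighbour. Groups of 3 or more held 674 sites (4.85%), and 18 groups had 5 or more. The largest, 17 sites on chromosome Y (chrY:58819449-58894415), had a median copy number of 27 and median scores of 0.252 in vehicle and 0.245 in TSA. Of the groups whose median copy number was 1, the largest were a pair of 6 sites each. One, over 47.8 kb near BFSP2, a lens filament gene averaging -2.34 log2 CPM (chr3:133131342-133179167), had median scores of 0.0676 in vehicle and 0.0603 in TSA. The other, near FAM101A (chr12:124836689-124879365), had 0.0847 and 0.114.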
